A study of Mus musculus with 12 samples.

Results

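Selenoproteins are proteins that carry selenocysteine, the amino acid with selenium in place of the sulfur of cysteine. The 10 selenoprotein genes described here, Sepw1, Sepp1, Gpx1, Gpx3, Gpx4, Txnrd1, Txnrd2, Msrb1, Selk and Sep15, were chosen by name from the 47643 genes counted in osteoclasts exposed to eosinophils, and they are 10 of the 24 genes of the mouse that encode selenoproteins. They carry the older symbols of the count table, where Sepw1 stands for Selenow, Sepp1 for Selenop, Selk for Selenok and Sep15 for Selenof. Sepw1 was singled out for a larger rise with eosinophils than with their supernatant, so its values are a description without a test, and counts of genes are given over the other 9. The 14 further selenoprotein genes were read from the same table and fit.

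Bulk RNA-seq. covered 12 libraries of osteoclasts from BALB/c WT mice, the large multinucleated cells that resorb bone, in 3 groups of 4. Bone marrow-derived monocytes (BMMs) of all groups were grown with M-CSF and RANKL, the factors that drive osteoclast formation, and RNA was taken on day 3. BMMs of the OCsEo group received sorted eosinophils, 2 for each BMM, for the first 48 h, BMMs of the OCsEoS group received supernatant of cultured eosinophils at a 1:2 dilution for the same time, and OCsCtr were left unstimulated. The eosinophils had been sorted from pooled blood and marrow cells of IL-5tg/4get mice. That line is hyper-eosinophilic, with transgenic IL-5 and a reporter of IL-4 transcripts. The cultures were washed on day 2, so that a library can hold RNA of eosinophils or other sorted cells that stayed attached. From eosinophil-related transcripts in OCsEo, the study proposes that osteoclasts might internalize eosinophils. In such bulk samples, fewer cells of a type and less RNA per cell cannot be told apart. The study describes the 4 libraries of a group as biological replicates and its plotted symbols as individual mice, while the labels do not name the mouse behind a library, so that none was tied to a mouse here.

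Selenocysteine is read from UGA, elsewhere a stop codon, with the help of a stem-loop in the 3′ UTR called the SECIS element and a dedicated tRNA and elongation factor. Most selenoproteins are redox enzymes: glutathione peroxidases remove peroxides, thioredoxin reductases keep thioredoxin reduced, and several small members with a thioredoxin-like fold sit in the cytosol, nucleus or endoplasmic reticulum (ER). When selenium is scarce, the transcripts of some members, Gpx1, Sepw1 and Selh among them, are known to be lost earlier than others. Sepw1 is known in osteoclasts as a gene that falls during RANKL-driven differentiation.

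The codon that makes each of the 10 genes a selenoprotein gene is given here for the coding strand, with the UGA codon (TGA in the DNA) in capitals between up to 12 bases of coding sequence on either side. The sequences were taken from the GENCODE vM21 transcripts of GRCm38. Selh, Selm and Selt follow because they share with Sepw1 a cysteine codon 3 codons before the UGA, and because Selh and Selm were called higher with eosinophils while the groups overlapped for Selt.
Sepw1: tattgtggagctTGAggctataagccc
Selh: cattgtacgagcTGAcgcgtgtacggc
Selm: acctgtggaggaTGAcagttgaatcgc
Selt: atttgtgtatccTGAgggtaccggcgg
Gpx1: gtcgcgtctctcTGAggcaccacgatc
Gpx3: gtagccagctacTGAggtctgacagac
Gpx4: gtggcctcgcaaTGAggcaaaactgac
Txnrd1: cagtctggctgcTGAggt
Txnrd2: gtgactggttgcTGAggc
Msrb1: caatcaagattcTGAatatttagcagc
Selk: atggctggtggaTGAggaagg
Sep15: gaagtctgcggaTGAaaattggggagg
Sepp1, first UGA: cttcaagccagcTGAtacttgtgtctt
Sepp1, last UGA: aggaagtgaaaaTGAcattcaaac

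In Sepw1 the UGA was codon 13 of 88, at chr7:15920464-15920466 on the minus strand. In Gpx1 it was codon 47 of 201, at chr9:108339451-108339453 on the plus strand, and no cysteine codon lay within the window. Txnrd1 and Txnrd2 had it next to last, at codon 498 of 499 and codon 526 of 527, directly after a cysteine codon, and Selk had it at codon 92 of 94. Sepp1 held 10 UGA codons among 380, the first at codon 59 and the last at codon 377. A cysteine codon 3 codons before the UGA was found in 6 of the 24 genes, Sepw1, Selh, Selm, Selt, Selo and Selv. The sequences of Selo and Selv are not shown. Selo had a log2 fold change of -0.19 with eosinophils, and Selv had 0 counts in every library.

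**Figure D1:**
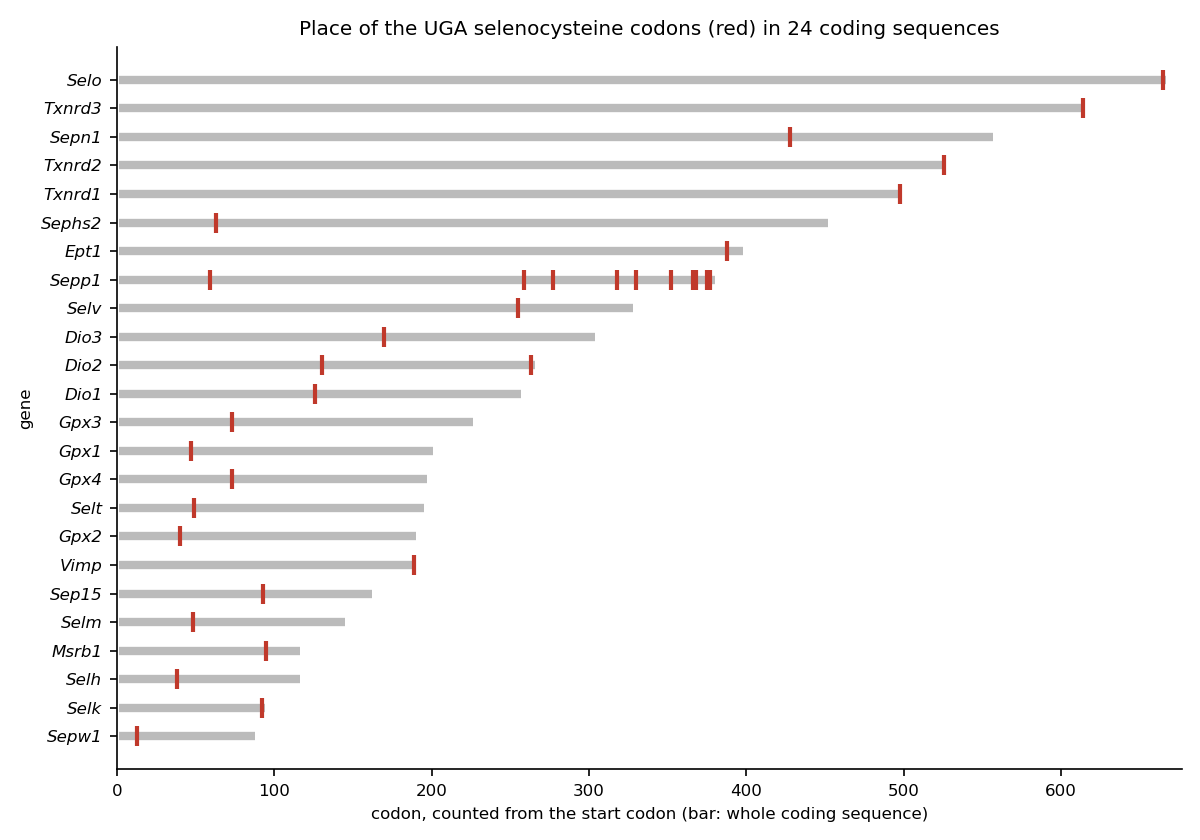
Place of each UGA selenocysteine codon (red tick) along the coding sequence (grey bar) of the 24 selenoprotein genes, in codons from the start codon. Sepp1 has 10 ticks and Dio2 has 2, and in Txnrd1, Txnrd2, Txnrd3, Selk, Selo and Vimp the codon lies at the very end.

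The libraries held 27837530 to 40327869 counts, and 3 counts, the floor used for a gene without signal, corresponded to 0.0769 to 0.107 CPM. CPM are the counts of a gene per 1000000 counts of the library, scaled here by TMM factors, which ranged from 0.968 to 1.03. All 10 genes passed the filter on low counts, in a table of 13681 genes tested. The labels name osteoclasts, and the 10 osteoclast markers examined were high in every library, with a summed level of 28358 to 34496 CPM in OCsCtr, 18093 to 23205 CPM in OCsEo and 14942 to 22171 CPM in OCsEoS. A gene was called at a Benjamini-Hochberg adjusted p under 0.05 in edgeR's quasi-likelihood test together with an absolute log2 fold change over 0.5, and each adjusted p is of this test. Of the osteoclast markers, 8 of 10 were called lower in OCsEo, against 2.61% of all genes, and 8 of 10 in OCsEoS, against 4.11%.

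Sepw1 (ENSMUSG00000041571, chr7:15917208-15922402, minus strand), which encodes selenoprotein W, showed the largest rise of the family with eosinophils. Its level was 22.7, 23.1, 19.9 and 24 CPM in OCsCtr, 53.1, 52.8, 66.9 and 54.3 CPM in OCsEo, and 28.4, 27.9, 32.4 and 31.8 CPM in OCsEoS. The 3 groups did not overlap, with OCsEoS between the other two and far nearer to OCsCtr. The means were 22.4 ± 1.79 CPM in OCsCtr, 56.8 ± 6.77 CPM in OCsEo and 30.1 ± 2.34 CPM in OCsEoS (SD, n = 4 each). This was 2.53-fold higher in OCsEo than in OCsCtr (log2 fold change 1.34, SE 0.10) and 1.34-fold higher in OCsEoS (0.43, SE 0.10). The log2 difference of OCsEoS from OCsEo was -0.91 (SE 0.10). Of the 13681 genes tested, 155 had a larger log2 fold change in OCsEo vs OCsCtr and 331 a lower one in OCsEoS vs OCsEo. All these values are those the gene was chosen for.

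**Figure D2:**
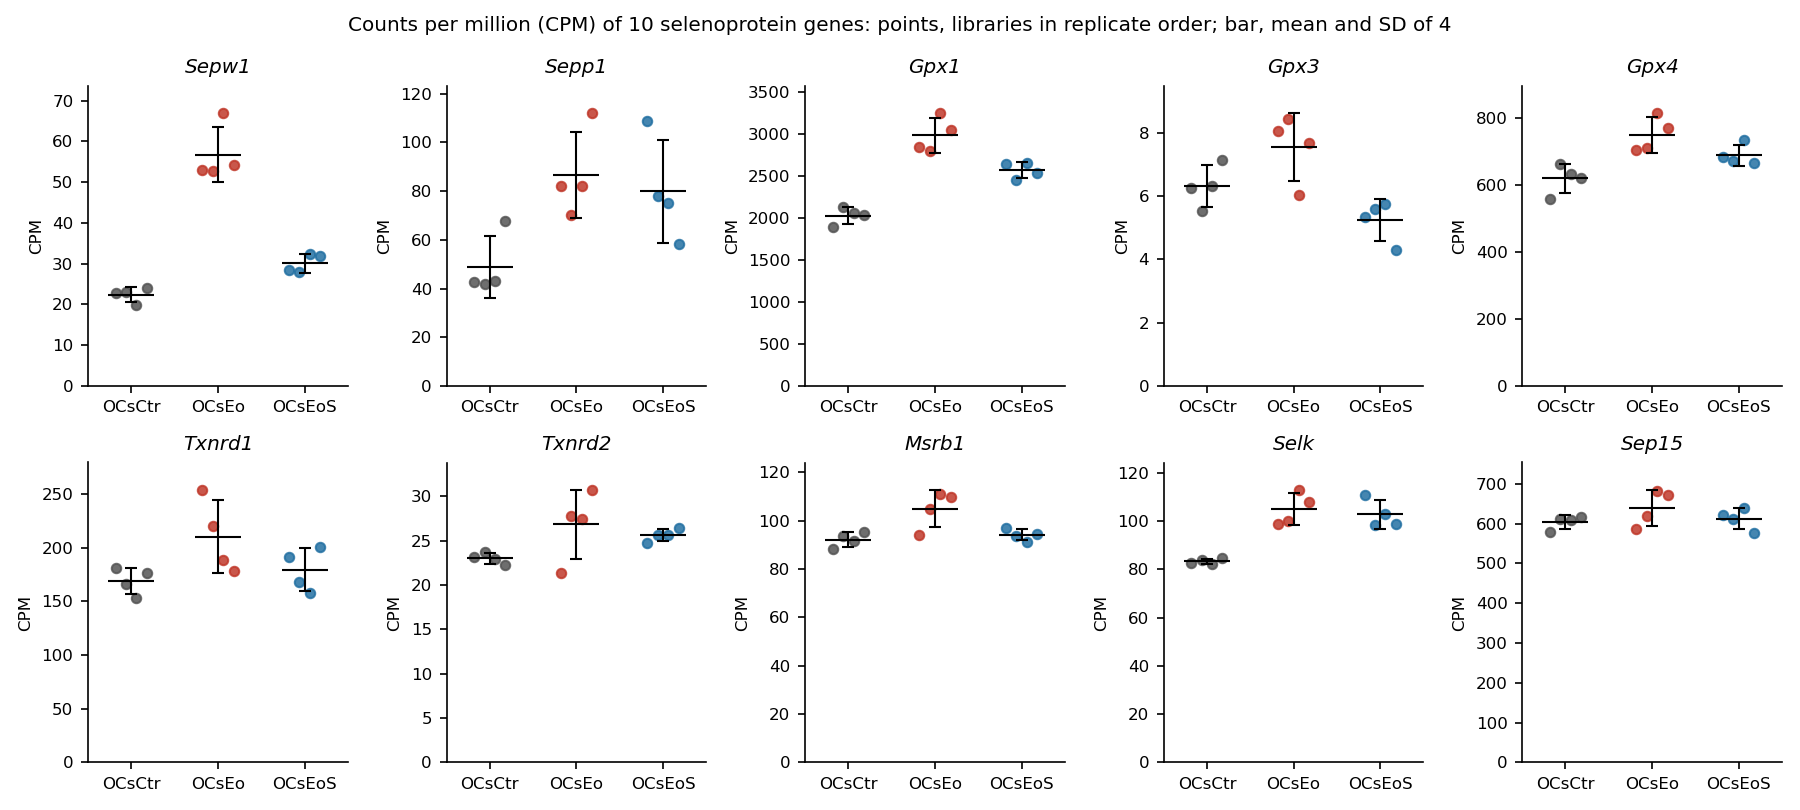
Level in CPM (vertical axes from 0) of the 10 selenoprotein genes in each of the 12 libraries (points), with the mean and SD of 4 per group (bars). Sepw1 separates all 3 groups, with OCsEo at 52.8 to 66.9 CPM, and Gpx1 does so at a level of at least 1889 CPM in every library. The share of all genes that separate the 3 groups was not counted.

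With eosinophils, Sepp1 and Gpx1 rose. They were the 2 of the 9 other members called higher, against 3.27% of all genes, and 0 were called lower, against 2.61%. By adjusted p alone, 6 of the 9 were higher, Gpx4, Selk, Txnrd1 and Msrb1 besides these 2, against 9.06% of all genes. Every log2 fold change of the 9 was above 0, with a median of 0.27 beside -0.007 over all genes tested. In 4 of the 9, Sepp1, Gpx1, Gpx4 and Selk, every OCsEo library lay above every OCsCtr library, which held for 10.5% of all genes. The members were chosen with these data known, so these shares describe the list and do not test it.

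With supernatant, Sepp1 was the 1 of the 9 called higher, against 3.63% of all genes, and 0 were called lower, against 4.11%. By adjusted p alone 3 of the 9 were higher, Sepp1, Gpx1 and Selk, against 11.8% of all genes. The median log2 fold change of the 9 was 0.15 beside -0.006 over all genes, and 8 of the 9 values were above 0, Gpx3 being the other. In 4 of the 9, Gpx1, Gpx4, Txnrd2 and Selk, every OCsEoS library lay above every OCsCtr library, against 12.6% of all genes. Both comparisons use the same OCsCtr libraries.

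Between the stimuli, 0 of the 9 were called in OCsEoS vs OCsEo by edgeR and 0 by DESeq2, against 0.38% of all genes called in either direction by edgeR. At an unadjusted p under 0.05, 4 of the 9 differed, against 11.1% of all genes. The log2 differences of the 9 all lay below 0, from -0.53 for Gpx3 to -0.03 for Selk, with a median of -0.12 beside 0.002 over all genes. In 2 of the 9, Gpx1 and Gpx3, every OCsEoS library lay below every OCsEo library, against 3.06% of all genes.

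**Figure D3:**
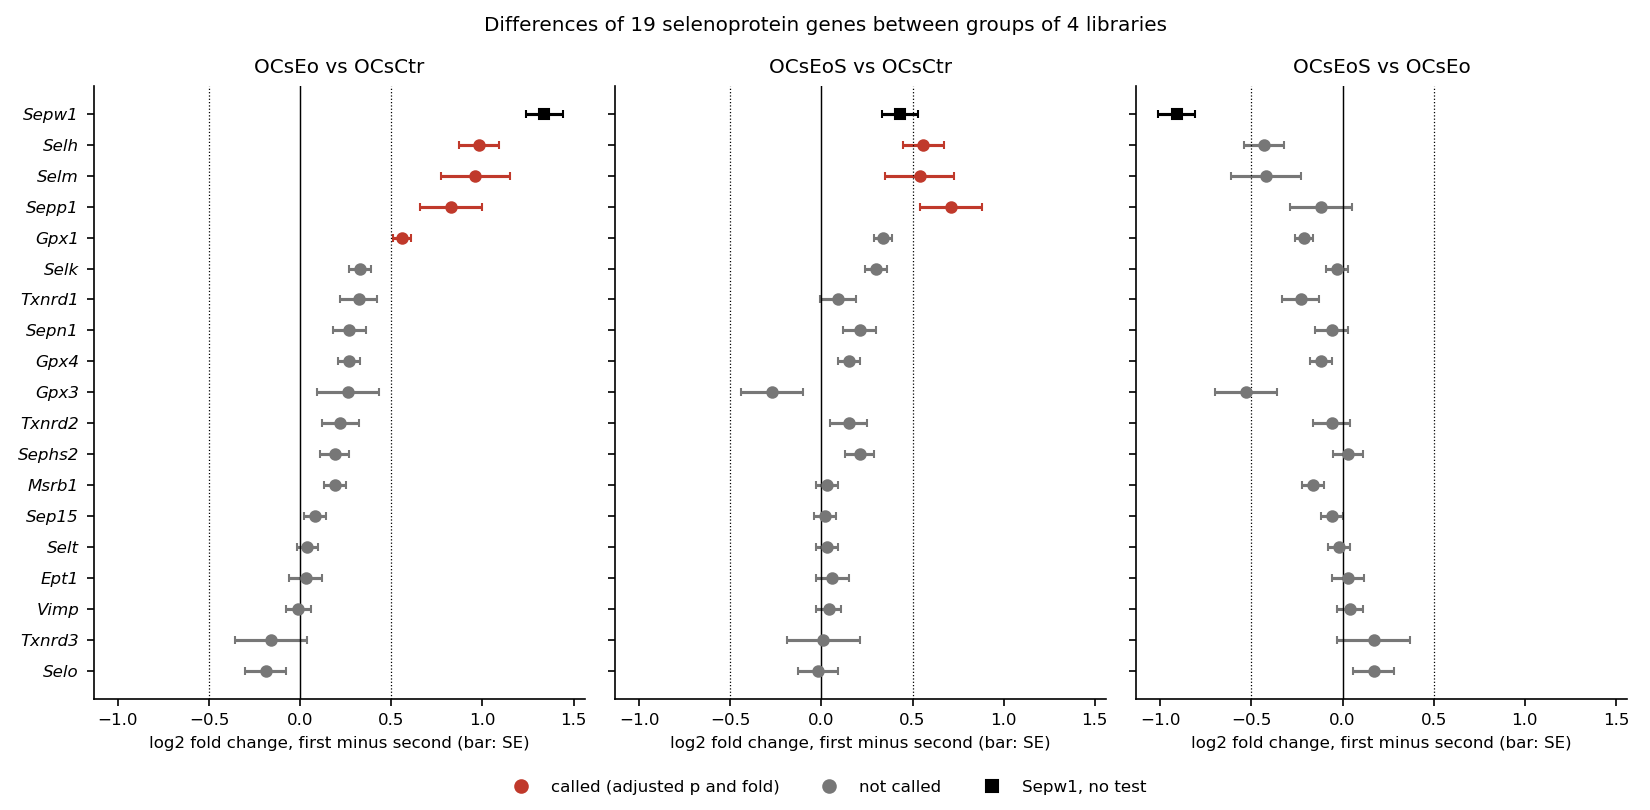
Log2 fold change (horizontal axis, first group minus second, bars SE) of 19 selenoprotein genes in the 3 comparisons of 4 libraries each, with Dio2 left out for its low counts. Called genes are red, dotted lines mark a log2 fold change of 0.5 in either direction, and Sepw1 (black square) carries no test. Sepw1, Selh, Selm, Sepp1 and Gpx1 stand at the top with eosinophils, at 0.56 to 1.34.

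Among the glutathione peroxidases, Gpx1 (ENSMUSG00000063856, chr9:108338903-108340343, plus strand), the abundant cytosolic enzyme that reduces hydrogen peroxide, was the 1 called, in OCsEo vs OCsCtr. Its level was 1889, 2127, 2060 and 2040 CPM in OCsCtr, 2852, 2794, 3249 and 3045 CPM in OCsEo, and 2649, 2455, 2652 and 2533 CPM in OCsEoS. As for Sepw1, the 3 groups stood apart with OCsEoS in the middle, but here OCsEoS lay past the midpoint towards OCsEo. How many of all genes tested show 3 separate groups was not counted. Gpx1 was 1.47-fold higher in OCsEo (log2 fold change 0.56, SE 0.05, adjusted p = 1.13e-06) and 1.27-fold higher in OCsEoS (0.34, SE 0.05, adjusted p = 1.41e-04), the latter under the fold threshold. The log2 difference of OCsEoS from OCsEo was -0.21, with a 95% interval of -0.33 to -0.10 and an adjusted p of 0.0827.

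Gpx4, which reduces lipid hydroperoxides in membranes and protects against ferroptosis, differed less. It measured 559 to 664 CPM in OCsCtr, 703 to 814 CPM in OCsEo and 666 to 733 CPM in OCsEoS. Its log2 fold change was 0.27 (SE 0.06, adjusted p = 0.0039) in OCsEo and 0.15 (SE 0.06, adjusted p = 0.083) in OCsEoS. The lowest stimulated library still exceeded the highest OCsCtr library. Gpx3, the secreted plasma enzyme, was low, with means of 6.32 ± 0.667, 7.55 ± 1.06 and 5.24 ± 0.66 CPM in OCsCtr, OCsEo and OCsEoS (SD, n = 4 each). It was the member whose values pointed opposite ways with the stimuli, a log2 fold change of 0.26 with eosinophils (adjusted p = 0.329) against -0.27 with supernatant (adjusted p = 0.278), neither of which passed.

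Sepp1 (ENSMUSG00000064373, chr15:3268547-3280508, plus strand) encodes the secreted carrier that takes selenium from the liver to other tissues. It measured 42.5, 41.7, 42.9 and 67.9 CPM in OCsCtr, 82.2, 70.2, 82.3 and 112 CPM in OCsEo, and 109, 77.9, 75.1 and 58.2 CPM in OCsEoS. All OCsEo libraries lay above the OCsCtr libraries, whereas the lowest OCsEoS library fell under the highest OCsCtr library. Sepp1 rose by 0.83 on the log2 scale with eosinophils (SE 0.17, adjusted p = 0.00235) and by 0.71 with supernatant (SE 0.17, adjusted p = 0.00523). OCsEoS differed from OCsEo by -0.12, with a 95% interval of -0.47 to 0.24, which leaves room for a difference either way. With 1 library left out, the log2 fold change of Sepp1 ran from 0.68 (without OCsEo 4) to 1.03 (without OCsCtr 4) with eosinophils and from 0.54 (without OCsEoS 1) to 0.92 (without OCsCtr 4) with supernatant, and it stayed called in each of these fits.

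The thioredoxin reductases and Msrb1 all differed by less than the fold threshold. Txnrd1, the cytosolic enzyme, measured 153 to 181 CPM in OCsCtr, 178 to 254 CPM in OCsEo and 158 to 201 CPM in OCsEoS, with overlapping groups. Its log2 fold change passed the adjusted p with eosinophils (0.32, SE 0.10, adjusted p = 0.0279) and not with supernatant (0.09, adjusted p = 0.579). The difference between the stimuli, -0.23 with a 95% interval of -0.43 to -0.03, did not pass after adjustment (adjusted p = 0.378). Txnrd2, the mitochondrial enzyme, had means of 23.0 ± 0.593, 26.8 ± 3.9 and 25.6 ± 0.709 CPM (SD, n = 4 each) and passed in no comparison. The strand setting of the counting is not given in the sources used here, and the values of Txnrd2 are uncertain for that reason. Msrb1, which repairs oxidized methionine, had means of 92.2 ± 3.05, 105 ± 7.9 and 94.1 ± 2.27 CPM (SD, n = 4 each), with a log2 fold change of 0.19 with eosinophils (SE 0.06, adjusted p = 0.0468) and of 0.03 with supernatant (adjusted p = 0.803).

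The ER members of the list split. Selk, a membrane protein that takes part in protein palmitoylation and in the removal of misfolded proteins, measured 82.3 to 84.7 CPM in OCsCtr, 98.9 to 113 CPM in OCsEo and 98.2 to 111 CPM in OCsEoS. The 8 stimulated libraries all lay above the tight OCsCtr group. The log2 fold change was 0.33 with eosinophils (SE 0.06, adjusted p = 0.00123) and 0.30 with supernatant (SE 0.06, adjusted p = 0.00201), both under the fold threshold, and OCsEoS differed from OCsEo by -0.03 with a 95% interval of -0.17 to 0.10. Sep15, a partner of the enzyme that checks glycoprotein folding, had means of 604 ± 17.2, 640 ± 45.3 and 613 ± 26.4 CPM (SD, n = 4 each). Its log2 fold changes were 0.08 with eosinophils, with a 95% interval of -0.03 to 0.20, and 0.02 with supernatant, with an interval of -0.10 to 0.14.

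Of the 14 further selenoprotein genes, 10 passed the filter on low counts, and Selh and Selm were the 2 called higher with eosinophils (3.27% of all genes) and the 2 called higher with supernatant (3.63% of all genes). None was called lower, against 2.61% of all genes with eosinophils and 4.11% with supernatant. The median log2 fold change of the 10 was 0.04 with eosinophils and 0.05 with supernatant. In OCsEoS vs OCsEo 0 of the 10 were called by edgeR and 0 by DESeq2, and 2 had an unadjusted p under 0.05, against 11.1% of all genes. Selh (ENSMUSG00000076437, chr2:84669215-84670770, minus strand), a nuclear member with a thioredoxin-like fold, measured 26.5, 21.7, 24.8 and 23.8 CPM in OCsCtr, 49.2, 43.8, 58.1 and 40.0 CPM in OCsEo, and 36.3, 33.5, 33.8 and 38.6 CPM in OCsEoS. Like Gpx1, and like Sepw1, which was chosen for its pattern, Selh had 3 separate groups with OCsEoS in the middle. The share of all genes with such a pattern was not counted. It rose 1.98-fold with eosinophils (log2 fold change 0.98, SE 0.11, adjusted p = 3.78e-06) and 1.47-fold with supernatant (0.56, SE 0.11, adjusted p = 8.09e-04). The log2 difference of OCsEoS from OCsEo was -0.43, with a 95% interval of -0.65 to -0.21 and an adjusted p of 0.0756. Without OCsEo 4 that difference was -0.50 and was called.

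Selm (ENSMUSG00000075702, chr11:3514684-3517351, plus strand), an ER member of the same fold, measured 13.2, 7.63, 10.5 and 5.94 CPM in OCsCtr, 17.6, 14.5, 22.2 and 18.2 CPM in OCsEo, and 15.6, 12.1, 12.3 and 14.2 CPM in OCsEoS. OCsEo lay above OCsCtr throughout, and OCsEoS overlapped both. It rose by 0.96 on the log2 scale with eosinophils (SE 0.19, adjusted p = 0.00159). Its call with supernatant (0.54, SE 0.19, adjusted p = 0.0485) was lost when OCsCtr 2, 3 or 4, OCsEo 1 or 4, or OCsEoS 1, 3 or 4 was left out, with Selm at 0.38 to 0.61 in those fits, and with edgeR on the 2 groups alone.

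None of the other genes of the family was called in any comparison, and several were hardly detected. Selt, the ER relative of Sepw1 that shares its cysteine codon, had means of 361 ± 21.7, 372 ± 26.0 and 368 ± 11.1 CPM (SD, n = 4 each), and its log2 fold changes of 0.04 and 0.03 had 95% intervals of -0.08 to 0.17 and -0.10 to 0.15. Vimp, which acts in ER-associated degradation, had log2 fold changes of -0.01 and 0.04, with intervals of -0.16 to 0.15 and -0.12 to 0.19. Ept1, an enzyme of phosphatidylethanolamine synthesis, had 0.03 and 0.06. Sepn1, an ER protein linked to calcium handling, had 0.27 (adjusted p = 0.0556) and 0.21 (adjusted p = 0.124), and Sephs2, which makes the selenium donor for selenocysteine synthesis, had 0.19 (adjusted p = 0.119) and 0.21 (adjusted p = 0.0617).

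Selo, a mitochondrial protein with a kinase fold that transfers AMP, was the 1 gene of the family with every OCsEo library below every OCsCtr library, 14 to 17.3 CPM against 17.4 to 19.7 CPM, which held for 10.9% of all genes, but its log2 fold change of -0.19 did not pass (adjusted p = 0.251). Its exons overlap those of Tubgcp6 on the other strand, so its counts are uncertain. Txnrd3, the testis form of thioredoxin reductase, measured 4.81 to 9.96 CPM over all libraries, and Dio2, a deiodinase, 0 to 1.43 CPM. Gpx2, the intestinal peroxidase, and Selv had 0 counts in every library, which allows a level up to the floor of 3 counts, Dio3 had 1 count in all and Dio1 had 7 counts, all in OCsEo 2.

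**Figure D4:**
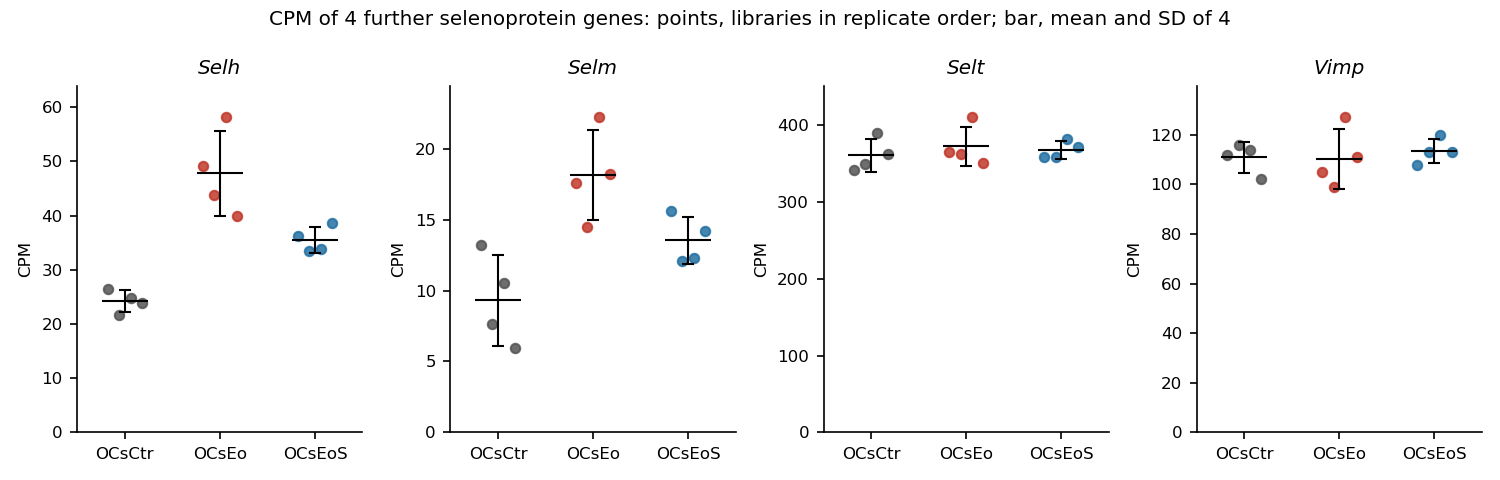
Level in CPM (vertical axes from 0) of Selh, Selm, Selt and Vimp in the 12 libraries (points), with the mean and SD of 4 per group (bars). Selh and Selm are higher in every OCsEo library than in any OCsCtr library, while the groups overlap for Selt and Vimp.

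Per kilobase of gene length, the scale on which genes can be set beside each other, Gpx1 had the highest level of the family. In OCsCtr, Gpx1 had 1408 ± 69.6 CPM per kb and Gpx4 had 359 ± 25.5 CPM per kb (SD, n = 4 each). Selt and Sep15 followed at 105 and 104 CPM per kb, and Vimp and Msrb1 at 75.1 and 73.3 CPM per kb, and neither pair of neighbours differed beyond its spread. Selk had 67.3, Txnrd1 49.4, Sephs2 35.3 and Sepw1 30.5 CPM per kb, with no overlap between the libraries of neighbours, although Sephs2 and Sepw1 came within 0.1 CPM per kb of each other. Selh at 21.4 and Sepp1 at 17.1 CPM per kb overlapped, and the rest were under 8 CPM per kb on average. With eosinophils Sepw1 reached 77.1 ± 9.2 CPM per kb (SD, n = 4) and moved from the 10th to the 7th place in the order of group means. Gpx1 held 58.4 to 59.8% of the summed CPM per kb of the 24 genes in OCsCtr, 63.1 to 63.9% in OCsEo and 61.9 to 62.7% in OCsEoS.

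**Figure D5:**
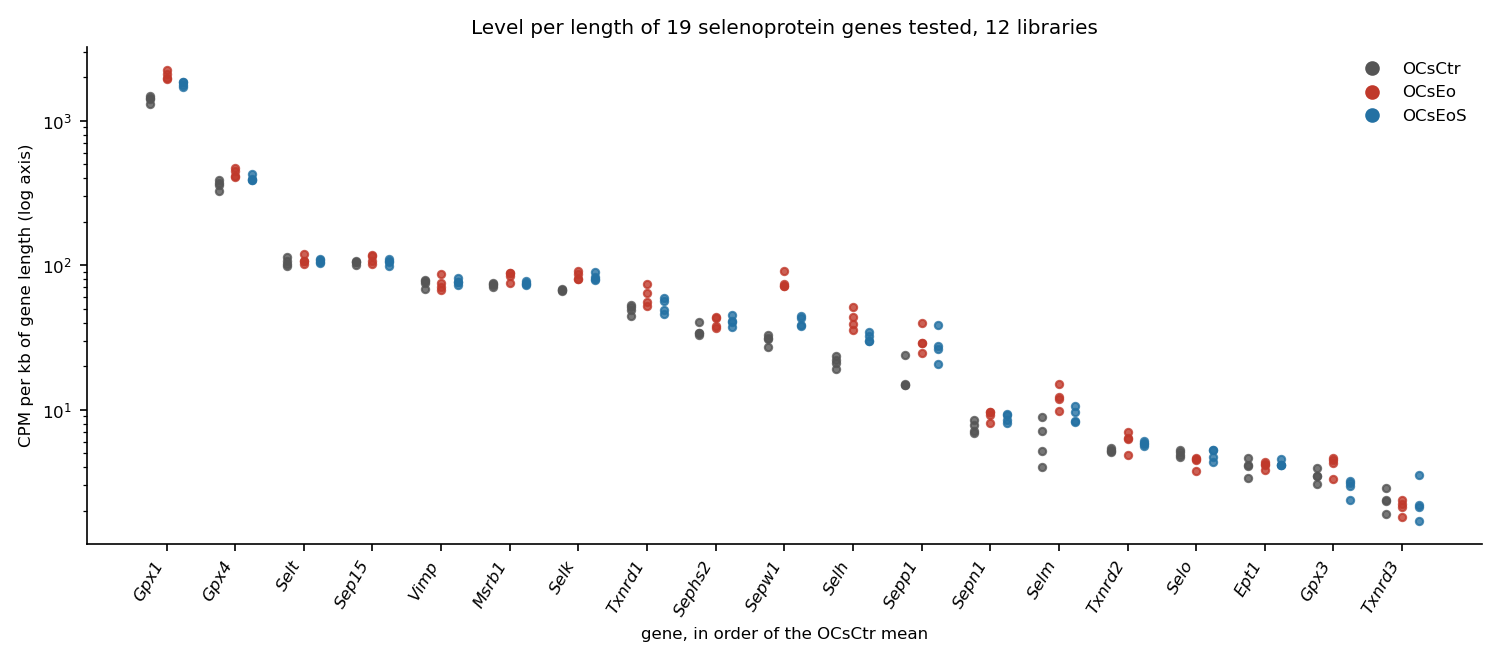
Level per length in CPM per kb (vertical log axis) of 19 selenoprotein genes in 12 libraries (points), in the order of their OCsCtr means, without Dio2, which has a library at 0. Gpx1 leads in every library, Gpx4 is second, and the OCsEo libraries of Sepw1, Selh and Selm lie above all their OCsCtr libraries.

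Of the 4 genes called higher with eosinophils, Gpx1, Selh and Selm were short, as was Sepw1, and Sepp1 was of middle length. Leaving out Sepw1, the 6 selenoprotein genes tested with a gene length under 1500 bases, Gpx1, Msrb1, Selk, Selh, Selm and Vimp, had a median log2 fold change of 0.44 with eosinophils and 0.32 with supernatant. The 5 of 1500 to 3000 bases had medians of 0.26 and 0.15, and the 8 longer ones 0.06 and 0.04. Over all genes tested the medians also fell with length, 0.09 and 0.14 for the 2219 genes under 1500 bases and -0.05 and -0.07 for the 8181 genes of 3000 bases or more. With the length trend of each library taken out, Gpx1 had a log2 fold change of 0.46 with eosinophils and was no longer called, and Selh with 0.43 and Selm with 0.42 were no longer called with supernatant.

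Across the 12 libraries, the genes whose log2 CPM followed that of Sepw1 most closely were Creg1 (Pearson r = 0.969), Vat1 (0.954), Npy (0.954), Taldo1 (0.953) and Fabp5 (0.951). Within the family, Gpx1 and Selh were the closest at 0.92 each, ahead of Gpx4 at 0.82 and Msrb1 at 0.81, and Selo was the most opposed at -0.56. The points of each correlation are the same 12 libraries in 3 groups, so these values describe the group pattern and carry no test.

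Genes that make and insert selenocysteine were measured as a background list, with 0 of 11 called with eosinophils and 0 of 11 with supernatant by edgeR. At an unadjusted p under 0.05 the counts were 4 and 2 of the 11, against 29.7% of all genes with eosinophils and 34.3% with supernatant. By adjusted p alone 2 were higher in each, against 9.06% and 11.8% of all genes. These were Pstk, a kinase in the synthesis of selenocysteine on its tRNA, at 0.35 (adjusted p = 0.0307) and Trnau1ap, a protein bound to that tRNA, at 0.29 (adjusted p = 0.0404) with eosinophils, and Trnau1ap at 0.33 (adjusted p = 0.0139) and Rpl30, a ribosomal protein that binds the SECIS element, at 0.32 (adjusted p = 0.00111) with supernatant. Eefsec, the elongation factor, had log2 fold changes of 0.24 and 0.08 (adjusted p = 0.295 with eosinophils, 0.769 with supernatant). For Secisbp2, the SECIS-binding protein, they were 0.42 and 0.11 (adjusted p = 0.0997 with eosinophils, 0.711 with supernatant). Of the receptors for the Sepp1 protein, Lrp8 and Lrp1 were tested and neither was called in either comparison by edgeR, with 2 and 0 of them at an unadjusted p under 0.05 (29.7% and 34.3% of all genes).

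Of 9 genes without selenocysteine that are related to selenoproteins by family or function, such as Gpx7, Msra and Gsr, 7 were tested. By edgeR 0 of them were called in either comparison. At an unadjusted p under 0.05 there were 2 with eosinophils and 1 with supernatant (29.7% and 34.3% of all genes). Gsr, glutathione reductase, came nearest to a call with eosinophils, at a log2 fold change of 0.46 (SE 0.08, adjusted p = 8.53e-04). Of the 10 genes of the thioredoxin system, 1 was called higher with eosinophils (3.27% of all genes) and 0 with supernatant by edgeR. At an unadjusted p under 0.05 the counts were 4 and 6 of the 10, against 29.7% and 34.3% of all genes. By adjusted p alone 3 of the 10 were higher with eosinophils and 6 with supernatant, against 9.06% and 11.8% of all genes. The called gene was Prdx1, a peroxidase that draws on thioredoxin, with means of 1357, 2048 and 1755 CPM in OCsCtr, OCsEo and OCsEoS and a log2 fold change of 0.59 (SE 0.06, adjusted p = 1.84e-06) with eosinophils and 0.37 (adjusted p = 1.78e-04) with supernatant. Of 6 genes of glutathione synthesis and use, 0 were called in either comparison by edgeR, with 3 and 4 at an unadjusted p under 0.05, against 29.7% and 34.3% of all genes. By adjusted p alone, Gclm and Glrx were higher in both comparisons (9.06% and 11.8% of all genes) and Gss was lower in both (8.35% and 11.2%). Gss had log2 fold changes of -0.31 with eosinophils (adjusted p = 0.0151) and -0.48 with supernatant (adjusted p = 4.08e-04).

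Some markers of eosinophils and neutrophils moved with OCsEo, although the eosinophils had been sorted with antibodies to CD45, CD125 and Siglec-F. Of 10 eosinophil markers, 5 were tested, and 2, Alox15 and Siglecf, were called higher in OCsEo, against 3.27% of all genes. Alox15 measured 6.24 to 16.7 CPM in OCsEo against 0.104 to 0.653 CPM in OCsCtr, and Siglecf 2.53 to 3.28 CPM against 0.218 to 0.653 CPM. The other 3 tested were not called, with log2 fold changes of -0.29 for Ccr3 (adjusted p = 0.0164), -0.01 for Prg2 (adjusted p = 0.994) and -0.20 for Ear2 (adjusted p = 0.938). The summed level of the 10 was 57.1 to 73.7 CPM in OCsCtr, 60.1 to 82.2 CPM in OCsEo and 49.3 to 55.5 CPM in OCsEoS, most of it from Ccr3 in every group. The granule genes were low, with Epx at 0 to 0.478 CPM in OCsEo and Prg2 at 4.21 to 7.25 CPM in OCsEo and 3.85 to 7.83 CPM in OCsCtr, and Epx, Prg3, Ear1 and Ear6 were at 0 in every OCsEoS library. The 11 neutrophil markers summed to 348 to 500 CPM in OCsCtr, 507 to 661 CPM in OCsEo and 395 to 458 CPM in OCsEoS, 2 of them called higher in OCsEo (3.27% of all genes) and 0 in OCsEoS by edgeR, and 3, Ltf, Ngp and Mpo, called lower in OCsEoS than in OCsEo (0.307% of all genes). Macrophages share the monocyte lineage of the BMMs, so their markers can come from the culture itself. Of the 8 macrophage markers, 2 were called higher in OCsEo (3.27% of all genes). In OCsEoS, which received no eosinophil cells, 5 of these 8 markers were called higher and 1 lower (3.63% and 4.11% of all genes). Their summed levels were 2290 to 2598, 2095 to 2447 and 1898 to 2271 CPM in OCsCtr, OCsEo and OCsEoS. Library OCsEo 3, the highest for Sepw1, Gpx1, Selh and Selm, also had the highest sum of eosinophil markers and the highest sum of neutrophil markers, 82.2 and 661 CPM. It was the highest as well for genes that were not called, such as Vimp at 127, Selt at 410 and Sep15 at 682 CPM. Sepp1, a called gene, was instead highest in OCsEo 4 at 112 CPM, and Gpx3 had its lowest OCsEo value in OCsEo 3, 6.02 CPM. The part of attached or internalized eosinophils, of neutrophils, or of macrophage-lineage cells of the culture in the levels of the selenoprotein genes was not tested.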

How the data were processed

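Bulk RNA-seq. was carried out on 12 libraries, 4 per group, made with a NEBNext Ultra kit. The authors cleaned the reads, per the labels with fastp, aligned them to mm10 with HISAT2 2.0.5 and counted reads per gene with featureCounts. The deposited values are raw counts, and the gene lengths used are those deposited in the same table. Samples were grouped by their labels. Of the 47643 genes, 27440 had 0 counts in every library, and 99.1% of the identifiers were found in GENCODE vM21, from which coordinates, overlaps and codons were taken. The sorted eosinophils and their supernatant had no library of their own in the files analysed here.

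Counts were analysed in R 4.3.3 with edgeR 4.0.16 (filterByExpr with a minimum count of 10, TMM, 1 quasi-likelihood fit of 12 libraries), and DESeq2 1.42.0 was an alternative. Adjusted p-values run over 13681 genes. Standard errors and 95% intervals are of the fitted log2 fold changes, CPM per kb is CPM divided by gene length, and likeness to Sepw1 used log2 CPM with a prior count of 2. On simulated data for OCsEo vs OCsCtr, 177 of 200 altered genes were recovered by edgeR and 5 calls were false. The altered genes had a log2 change of 1 up or down and were drawn from the genes with more counts. Recovery of smaller changes, such as those of most selenoprotein genes, was not measured. The members and lists were chosen with earlier results of these data known. Named genes are the 24 selenoprotein genes, called genes of the other lists, cell markers and the 5 genes closest to Sepw1; others named in a list were chosen after their values were seen. Markers of T cells, B cells, basophils or mast cells, erythroid and stromal cells were also read, and 0 of their genes were called in any comparison. Same-numbered libraries of different groups deviated together more closely than others, with a median correlation of 0.245 over 12 pairs against -0.11 over the other 36, but not in every pair. The labels do not say what the numbers stand for, and the main fit did not use them as pairs. Alternatives were other scalings, filters, tools and sample sets, a replicate block, a gene length correction, mitochondrial genes left out, no fold threshold, and each library left out.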

Additional observations from a re-analysis of the deposited data

Results flagged for a closer look

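In groups of 4 libraries, 4 of the 60 groups examined (20 selenoprotein genes in 3 groups) held a library whose gap to its neighbour exceeded Dixon's 95% critical value, and chance flags about 1 group in 20. Sepw1 was at 66.9 CPM in OCsEo 3, above the other OCsEo libraries, and its log2 fold change without that library was 1.25. Sepp1 was at 67.9 CPM in OCsCtr 4, above the other OCsCtr libraries. Ept1 was at 59.2 CPM in OCsEoS 4, the highest of its group. Selo was at 14 CPM in OCsEo 1, the lowest of its group, and its log2 fold change without that library was -0.13.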

How the results depend on the processing

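The calls of Sepp1 in both comparisons with OCsCtr and of Selh and Selm with eosinophils held under every alternative run, and those of Gpx1 with eosinophils under all but the length correction. With the gene length trend taken out, 1 of the 9 members was called with eosinophils and 0 further selenoprotein genes with supernatant, where Msrb1 turned to -0.10, Vimp to -0.08 and Txnrd3 to -0.01. The members higher by adjusted p alone also shrank under some alternatives. Apart from fits with 1 library left out, their lowest log2 fold changes with eosinophils were 0.18 for Gpx4, 0.23 for Selk, 0.31 for Txnrd1 and 0.09 for Msrb1. With supernatant they were 0.22 for Gpx1 and 0.17 for Selk. Without a fold threshold 6 and 3 of the 9 members were called, and 2382 genes with eosinophils, 3151 with supernatant and 81 between the stimuli. The last comparison had 52 genes called, 100 with no filter on low counts, and 17 to 62 with 1 library left out (27 without OCsEo 2, 34 without OCsEo 3, 17 without OCsEoS 3, 34 without OCsEoS 4). DESeq2 on all libraries called 862, 1101 and 77 genes. With edgeR on 2 groups 1 further gene was called with supernatant, and with 1 library left out 1 to 2, while 0 to 1 were called in OCsEoS vs OCsEo.

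With 1 library left out, small differences changed sign. In OCsEo vs OCsCtr the ranges were -0.92 to 0.08 for Dio2, -0.05 to 0.10 for Ept1, -0.09 to 0.04 for Vimp and -0.01 to 0.09 for Selt. In OCsEoS vs OCsCtr they were 0.00 to 0.05 for Msrb1, -0.01 to 0.05 for Sep15, -0.23 to 0.15 for Txnrd3, -0.02 to 0.14 for Ept1, -0.06 to 0.04 for Selo, 0.00 to 0.07 for Vimp and -0.01 to 0.07 for Selt. In OCsEoS vs OCsEo they were -0.29 to 0.03 for Sepp1, -0.17 to 0.00 for Txnrd2, -0.07 to 0.00 for Selk, -0.08 to 0.30 for Txnrd3, -1.12 to 0.09 for Dio2, 0.00 to 0.05 for Ept1, -0.01 to 0.12 for Vimp, -0.05 to 0.03 for Selt and -0.02 to 0.07 for Sephs2. Same-numbered libraries of 2 groups had correlated deviations of -0.32 to 0.47 over 12 pairs, 7 of them over 0.1, and 10 of 12 libraries matched their own number best. With the replicate block 854, 1108 and 67 genes were called, the block changed no call among the selenoprotein genes, and Txnrd3 in OCsEoS vs OCsCtr was at -0.01. The cause of these changes was not tested.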
